A study of Mus musculus with 24 samples.

Results

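Wild-type (WT) and STING-deficient (KO) mouse bone marrow cells were compared after 4 days of RANKL, the cytokine that turns macrophage-like precursors into osteoclasts. The comparison rested on 6 of the 24 RNA-seq libraries of the study, 3 WT (mice 480, 529 and 531) and 3 KO (mice 481, 528 and 532), chosen by genotype and day alone. The marrow donors were females aged 10 to 12 weeks. Their marrow cells were expanded for 72 hours in mCSF, the macrophage growth factor, at 40 ng/mL, and then given RANKL at 10 ng/mL with mCSF at 20 ng/mL. The triplicate wells of a mouse were pooled, so each library is 1 mouse, and all 6 day 4 cultures had RANKL. The sources used here do not describe the mutant allele of the STING-deficient mice. Values are FPKM, fragments per gene scaled to transcript length and to library size. Differences are KO minus WT on the log2(FPKM + 1) scale, which understates fold changes of genes with low FPKM.

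STING is a membrane adaptor that is activated by the cyclic dinucleotide made by the DNA sensor cGAS. It recruits the kinase TBK1, which phosphorylates the transcription factor IRF3 and switches on type I interferon. Secreted interferon then acts on its receptor to induce interferon-stimulated genes, many of them antiviral. Osteoclasts arise when RANKL acts on its receptor RANK on myeloid precursors and induces the transcription factor NFATc1, after which the cells fuse, acidify the bone surface and secrete proteases. Interferon is known to restrain this programme.

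All 6 libraries carried the osteoclast programme. Acp5, Ctsk and Mmp9, which encode the tartrate-resistant acid phosphatase and the matrix proteases of osteoclasts, together made up 7.54% to 8.88% of the summed FPKM of a library. Summed FPKM ran from 487890 to 537910, with 514170 ± 25105 in WT and 526710 ± 2593 in KO (SD, n = 3). An exact permutation test gave p = 0.6 (two-sided). With 3 against 3 libraries it cannot go below 0.1, so it could not have shown a difference. Absolute read depth is unknown, and the steps between low FPKM values put the libraries at 0.979 to 1.05 times the depth of WT mouse 480. Markers of some other lineages were mostly low: 9 of 10 B cell markers and 12 of 13 erythroid, mast cell and megakaryocyte markers lay below 1 FPKM in every library. This held for fewer markers of other myeloid cells. It was so for 7 of 15 neutrophil, 6 of 15 dendritic cell and MHC class II, and 1 of 29 macrophage and monocyte markers.

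The 3 WT libraries lay farther apart from each other than the 3 KO libraries. The first principal component of the 6 libraries held 39.3% of the variance and placed WT mouse 480 and WT mouse 531 at opposite ends, with the 3 KO mice between them. The second held 20.8% and placed WT mouse 529 at one end, and that mouse was the lowest of the 6 libraries for 2898 of the 9413 genes tested. The median correlation across genes was 0.988 between WT libraries, 0.993 between KO libraries and 0.992 between genotypes. The components and correlations included genes listed at 0 in some libraries and far above 0 in others, which can be failed estimates. Gsn, for example, was listed at 0 in WT mouse 480 and KO mice 481 and 532, the libraries on the side of WT mouse 480 on the first component. The part of such genes in these values was not tested. The median SD of a gene on the log2 scale was 0.11 over WT and 0.0776 over KO libraries. Values without single mice are therefore given below beside the results that moved most.

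The STING gene itself was low in both genotypes at day 4. Sting1, which the table lists as Tmem173, occupies 35733679 to 35740554 on the minus strand of chromosome 18 (GRCm38). It measured 3.38, 4.93 and 5.01 FPKM in WT mice 480, 529 and 531, and 2.65, 2.86 and 2.85 FPKM in KO mice 481, 528 and 532. The groups did not overlap, and WT mouse 480 lay closest to the KO mice. The log2 difference was -0.51 (SE 0.125, 95% interval -0.79 to -0.22), which did not pass over all genes tested (limma with Benjamini-Hochberg adjustment, adjusted p = 0.9997). Without WT mouse 480 it was -0.66 (limma adjusted p = 0.0756). The same mice before RANKL differed more: WT measured 25.15 ± 3.70 FPKM and KO 4.84 ± 0.26 FPKM at day 0 (SD, n = 3). The within-mouse change from day 0 to day 4 differed between genotypes by 1.65 (SE 0.230, limma adjusted p = 0.79), and passed in a fit without the pairing by mouse (limma adjusted p = 0.0184).

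Of 9413 genes tested, 1 differed between the genotypes at an adjusted p under 0.05 by limma (0.0106% of genes), and it was higher in KO. At an unadjusted p under 0.05 there were 109 genes (1.16%), 57 lower in KO (0.606%) and 52 higher in KO (0.552%). For 141 genes (1.50%) every KO library lay below every WT library, and for 221 genes (2.35%) every KO library lay above. The median 95% interval of a log2 difference reached 0.198 to either side, and for 8971 genes (95.3%) the whole interval lay inside ±0.5. Without WT mouse 480 the unadjusted calls were 625, and 3 genes passed adjustment (0.0318%): Gm8615, Mir1945 and Ms4a6c. The microRNA gene Mir1945 was listed at 172 and 87.9 FPKM in WT mice 529 and 531. It was listed at 0 in WT mouse 480 and in every KO mouse, and such a 0 can be a failed estimate. Ms4a6c, a membrane gene of the myeloid MS4A family named after its values were seen, measured 16.4, 34.0 and 32.4 FPKM in WT mice 480, 529 and 531. It measured 21.4, 21.0 and 20.6 FPKM in KO mice 481, 528 and 532. It was thus lower in WT mouse 480 than in any KO mouse, and the log2 difference without that mouse was -0.64 (limma adjusted p = 0.0312) against -0.31 with it (limma adjusted p = 0.9997).

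The gene that passed was Gm8615, a pseudogene on chromosome 5. It measured 0.0495, 0.0234 and 0.0479 FPKM in WT against 3.06, 3.08 and 2.71 FPKM in KO. The groups were far apart, and Gm8615 rose by 1.92 on the log2 scale in KO (SE 0.0936, limma adjusted p = 7.08e-05). Its transcript of 771 bases matched Gnpda1, a gene of hexosamine catabolism on chromosome 18, at 99.07% over 753 bases, which makes the assignment of reads to either gene, and hence each value, uncertain. Gnpda1 lies 2.60 Mb from Sting1. It measured 48.0, 51.9 and 51.4 FPKM in WT against 45.2, 47.9 and 53.3 FPKM in KO, and the groups overlapped.

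The next genes by p were both neighbours of Sting1 on chromosome 18. Stard4, a sterol carrier, measured 5.41, 5.47 and 4.58 FPKM in WT against 7.94, 9.71 and 9.004 FPKM in KO. Arap3, a GTPase-activating protein for small GTPases, measured 17.4, 19.9 and 17.8 FPKM in WT against 25.4, 29.6 and 30.4 FPKM in KO. Every KO library lay above every WT library for both genes. The log2 differences were 0.68 for Stard4 (SE 0.0955) and 0.60 for Arap3 (SE 0.0867), and neither passed (limma adjusted p = 0.214 for each). All other genes had a limma adjusted p of at least 0.9997.

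**Figure D1:**
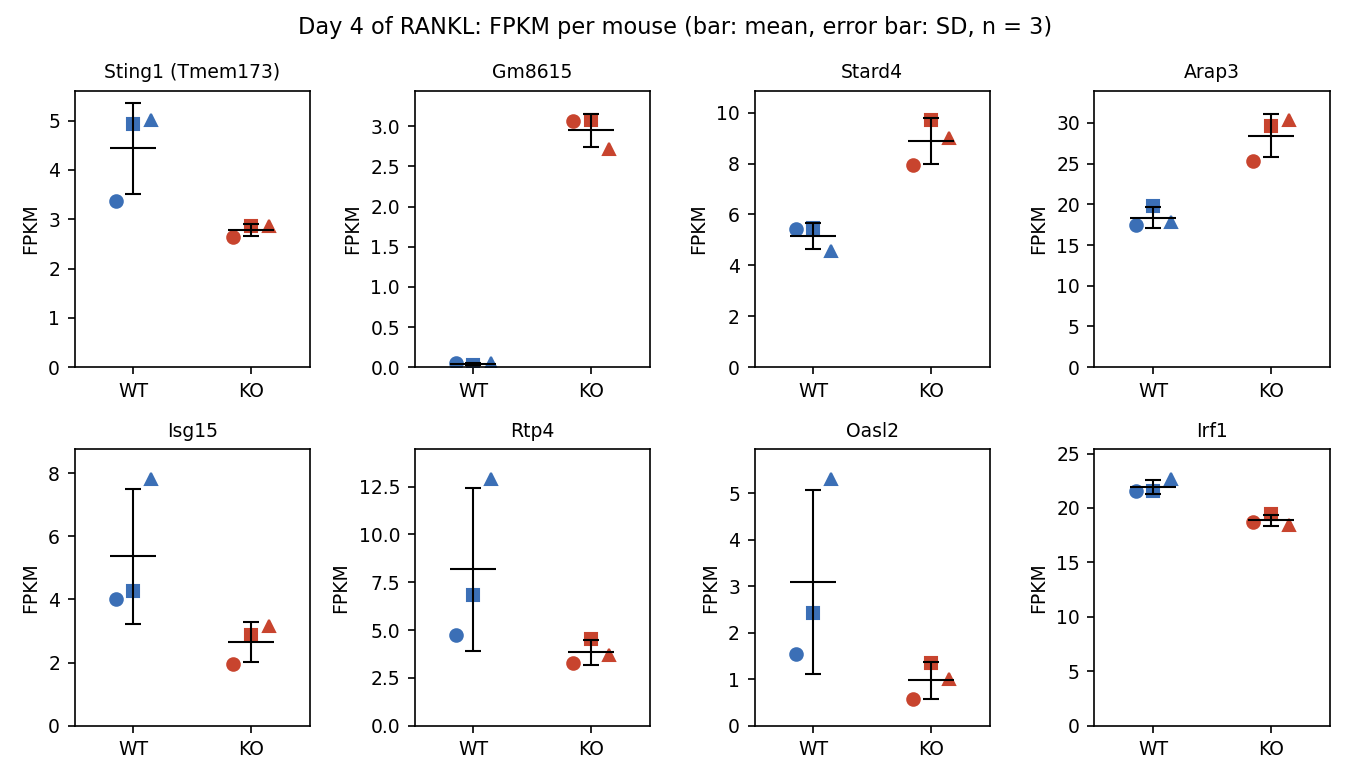
FPKM of 8 genes at day 4 in the 3 WT (blue) and 3 KO (red) mice, 1 point per mouse, with the group mean and SD (n = 3) in black; circles are WT mouse 480 and KO mouse 481, squares WT 529 and KO 528, triangles WT 531 and KO 532. The genotypes do not overlap for any of the 8, and WT mouse 531 is the highest library for Isg15, Rtp4 and Oasl2.

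The neighbourhood of Sting1 on chromosome 18 was then examined as a whole. Within 10 Mb of Sting1, 67 other genes were tested, and 6 had an unadjusted p under 0.05 (8.96%, against 1.16% of all genes tested). Of the other 161 genes tested on chromosome 18, 1 did (0.621%). The 5 that lay higher in KO were Stard4 and Arap3, Wdr55 with a log2 difference of 0.21, the cell cycle ubiquitin ligase subunit Cdc23 with 0.20, and Hbegf, an EGF family growth factor, with 0.31. The 1 that lay lower was Tmco6 (-0.38). They lie between -2.53 Mb (Stard4) and 2.25 Mb (Arap3) from Sting1. All but Tmco6 and Hbegf had every KO library above every WT library. Without WT mouse 480 the window held 4 genes higher (5.97%) and 1 lower (1.49%) at an unadjusted p under 0.05. Of all genes, 1.92% were higher and 4.70% lower in that comparison.

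**Figure D2:**
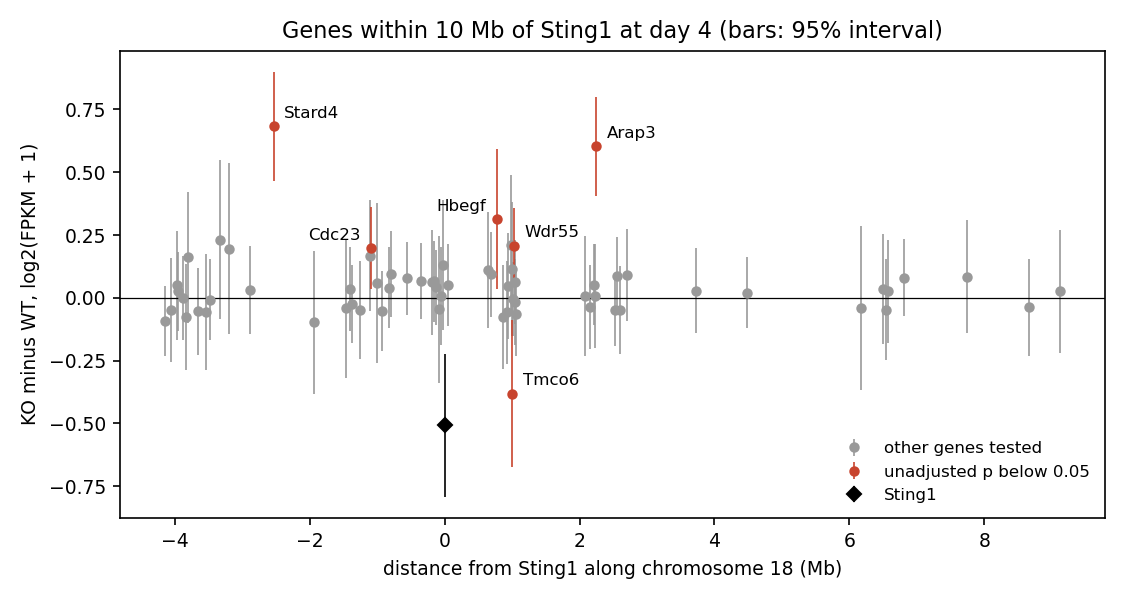
Log2 difference (KO minus WT, log2(FPKM + 1)) with its 95% interval against distance from Sting1 in Mb along chromosome 18, for the 67 genes tested within 10 Mb and for Sting1. Stard4 (0.68) and Arap3 (0.60) stand above the other neighbours, most of whose intervals include 0.

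Interferon-stimulated genes lay lower in KO as a group, by small amounts, and no single member passed. Of the 80 listed members in the table, whatever their level, 75 had a negative log2 difference (median -0.21), against 4589 of all 10721 genes (median 0.01). Testing required a mean of 1 FPKM in either group. Both groups reached it for 58 members and WT alone for 9, which therefore had to be lower in KO, and 13 were not tested, among them Ifit3, Mx1, Mx2 and Oasl1. Among the 58, 53 were negative (median -0.20), and 10 were lower in KO at an unadjusted p under 0.05 (0.606% of all genes tested). Of all 67 tested members 15 were lower and 0 higher at that p, and the median was -0.24. With a mean of 5 FPKM required in either group it was -0.15. Every KO library lay below every WT library for 5 of the 58 members and 4 of the 9 (1.50% of all genes), and above for 0.

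The 6 tested members with the smallest p had log2 differences between -0.96 and -0.21. Isg15, a ubiquitin-like protein attached to viral and host proteins, measured 4.00, 4.27 and 7.83 FPKM in WT against 1.95, 2.86 and 3.16 FPKM in KO. Its log2 difference was -0.77 (SE 0.215, limma adjusted p = 0.9997). Every WT library was above every KO library, with WT mouse 531 far above the other two. Oasl2, an oligoadenylate synthetase-like protein, measured 1.54, 2.42 and 5.32 FPKM in WT against 0.573, 1.35 and 0.997 FPKM in KO. The difference was -0.96 (SE 0.294, limma adjusted p = 0.9997), again without overlap and highest in WT mouse 531. Rtp4, an interferon-induced chaperone of membrane receptors, measured 4.74, 6.85 and 12.9 FPKM in WT against 3.28, 4.54 and 3.69 FPKM in KO (-0.83, SE 0.269). Irf1, a transcription factor of interferon responses, had the tightest values: 21.5, 21.5 and 22.7 FPKM in WT against 18.7, 19.5 and 18.4 FPKM in KO (-0.21, SE 0.0632). Usp18, which removes Isg15 from its targets, differed by -0.57 (SE 0.191), and the nucleotide kinase Cmpk2 by -0.56 (SE 0.185), both without overlap. Oasl2, Usp18 and Cmpk2 reached the level for testing in WT alone. Without WT mouse 531 the differences shrank to -0.51 for Isg15, -0.60 for Oasl2, -0.48 for Rtp4 and -0.35 for Usp18, while Irf1 was at -0.18. Reads can be split within the Oas and Ifit families, so their single values are uncertain.

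Among the regulators of the response no gene passed. Irf7, which amplifies interferon production, measured 3.22, 4.03 and 8.78 FPKM in WT against 1.98, 3.30 and 2.69 FPKM in KO (-0.71, SE 0.277), and the groups overlapped. Stat2, a signal transducer of the interferon receptor, had a difference of -0.23 (SE 0.136). Its partner Irf9 differed by -0.35 (SE 0.156). Of 14 tested genes of the list of receptors, kinases and inhibitors of interferon signalling, 10 were negative (71.4%, against 41.1% of all genes). Their median was -0.04, and 0.002 without WT mouse 529. Usp18 belongs both to this list and to the interferon-stimulated genes. It reached the level for testing in WT alone, and so had to be negative. Of 22 tested genes of the STING and nucleic acid sensing list, 12 were negative (median -0.02), and Sting1 was the only one under an unadjusted p of 0.05. The RNA sensor Ddx58 (RIG-I) differed by -0.47 (SE 0.212) and the DNA exonuclease Trex1 by -0.20 (SE 0.0953). These values also moved with single WT mice. Without WT mouse 531 the differences were -0.35 for Irf7, -0.13 for Stat2, -0.19 for Irf9, -0.27 for Ddx58 and -0.09 for Trex1. They were -0.96, -0.40, -0.55, -0.74 and -0.28 in the same order without WT mouse 480.

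The WT mice spread widely in this group, and WT mouse 480 lay among the KO mice. The 67 tested members counted here include 9 that reached the level for testing in WT alone, and so had to be lower in KO. The mean log2 level of the 67 members was 3.03 in WT mouse 480, 3.36 in WT mouse 529 and 3.59 in WT mouse 531. It was 2.91, 3.19 and 3.06 in KO mice 481, 528 and 532. WT mouse 531 was the highest of the 6 libraries for 53 of the 67 members, and WT mouse 480 was the lowest WT library for 54. WT mice 529 and 531 both lay above all KO mice for 51 members (828 of all 9413 genes), whereas WT mouse 480 lay below all KO mice for 18 members and above all of them for 11 (2198 and 2445 of all genes). Mouse numbers 480 and 481, 528 and 529, and 531 and 532 are neighbours, and the WT mouse had the higher mean of the 67 members in each of these pairs. Whether neighbours shared a litter or a culture day was not stated. Without WT mouse 480 the median was -0.39, with 45 of 67 members lower in KO at an unadjusted p under 0.05 (67.2%, against 4.70% of all genes) and 0 passing adjustment. Without WT mouse 531 it was -0.12, with 6 of 62 (9.68%, against 117 of 9409 of all genes).

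**Figure D3:**
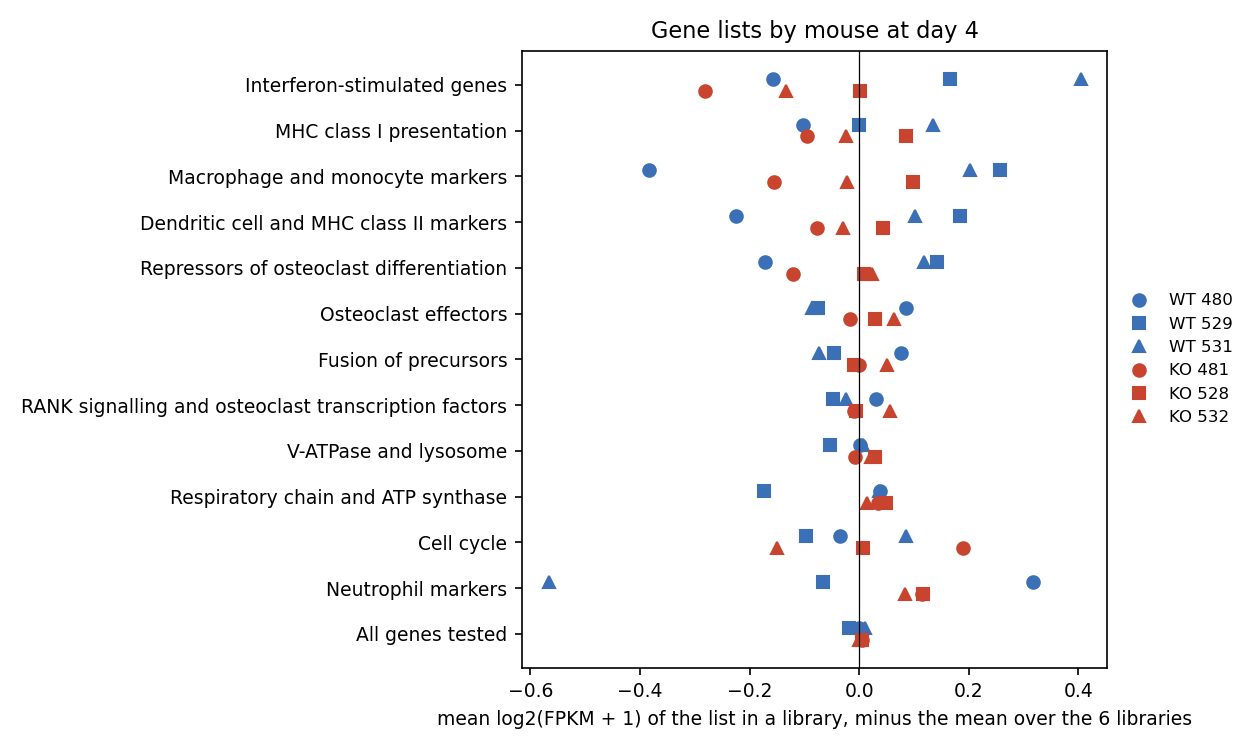
Mean log2(FPKM + 1) of 12 gene lists and of all genes tested in each day 4 library, as the difference from the mean of the 6 libraries; blue symbols are WT mice and red symbols KO mice. WT mouse 480 (blue circle) is low for interferon-stimulated, macrophage, MHC class II and repressor genes and high for osteoclast effectors and neutrophil markers, with WT mouse 531 (blue triangle) at the other end for interferon-stimulated genes and neutrophil markers.

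Promoter sequences were inspected because interferon acts through 2 short motifs. The interferon-stimulated response element (ISRE) was searched as its core, 2 GAAA repeats with any 2 bases between them, and the gamma-activated site (GAS) as TTCNNNGAA, on both strands, in RefSeq windows (GRCm38.p6) from 250 bases before to 50 bases after each gene start. Of the 67 tested members 54 matched a window. The ISRE core was present in 26 of the 54 (48.1%), in 281 of the 7609 tested genes with a window (3.69%) and in 3.44% of all 32851 windows. The 26 members with the core had a median log2 difference of -0.31, with 25 negative, and the 28 without it had a median of -0.15, with 25 negative. The tested members include some, such as Rsad2, that reached the level for testing in WT alone and so had to be lower in KO. The 2 medians are therefore not free of that filter. Over all 281 tested genes with the ISRE core the median was -0.0065. The GAS core was present in 12 of the 54 (22.2%) and in 8.03% of tested genes with a window. For the GAS core the order of the medians was the reverse. The 12 members with it had a median of -0.12, with 10 negative, and the 42 without it had a median of -0.24, with 40 negative. The GAS medians carry the same filter, and no difference between medians was tested. Isg15, Oas3 and Rsad2, the members with the ISRE core and the smallest p, are shown as the 150 bases before the gene start, 5′ to 3′ on the strand of the gene, with the core in capitals; in Rsad2 the core reads on the opposite strand.
Isg15: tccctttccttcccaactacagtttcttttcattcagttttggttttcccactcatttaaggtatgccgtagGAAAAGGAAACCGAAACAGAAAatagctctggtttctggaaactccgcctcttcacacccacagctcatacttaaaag
Oas3: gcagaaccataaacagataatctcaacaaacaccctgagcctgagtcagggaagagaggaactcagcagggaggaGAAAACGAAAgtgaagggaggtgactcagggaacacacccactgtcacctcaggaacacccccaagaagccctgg
Rsad2: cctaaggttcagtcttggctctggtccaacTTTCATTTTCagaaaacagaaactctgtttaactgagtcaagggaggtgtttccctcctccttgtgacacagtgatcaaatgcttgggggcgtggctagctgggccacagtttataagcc
These windows are chr4:156200819-156200968, chr5:120777660-120777809 and chr12:26456453-26456602, all on the minus strand. Isg15 holds 3 overlapping matches, the first beginning 78 bases before the start, while the match begins 75 bases before the start in Oas3 and 120 in Rsad2. A match is a description of the letters and not evidence of a bound factor. At day 4 Oas3, an oligoadenylate synthetase, measured 2.202, 3.26 and 5.09 FPKM in WT against 1.52, 2.23 and 1.83 FPKM in KO (-0.62, SE 0.207). Rsad2 (viperin), an antiviral radical enzyme, measured 0.514, 1.08 and 1.44 FPKM in WT against 0.326, 0.680 and 0.369 FPKM in KO (-0.45, SE 0.179). Both overlapped between genotypes, through WT mouse 480.

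The genotype difference in this group was also set against earlier days of the same mice. In the within-mouse change from day 0 to day 4, 62 of 67 members had a positive difference between genotypes (median 0.38), and 18 had an unadjusted p under 0.05 (2.65% of all genes). No gene passed adjustment (limma, 0 of 9993). In WT, Isg15 went from 55.7 ± 15.6 at day 0 to 5.37 ± 2.14 FPKM at day 4, and in KO from 14.4 ± 6.04 to 2.66 ± 0.632 FPKM (SD, n = 3), a difference between the changes of 1.14 (limma adjusted p = 0.971). From day 3 to day 4 the signs ran the other way, with 54 of 67 members negative (median -0.11), and 5 had an unadjusted p under 0.05 (1.91% of all genes). In WT, Oasl2 went from 0.67 ± 0.2 at day 3 to 3.09 ± 1.98 FPKM at day 4, and in KO from 0.351 ± 0.172 to 0.974 ± 0.39 FPKM (SD, n = 3), a difference between the changes of -0.66 (limma adjusted p = 0.9997). For Isg15 the difference between the changes from day 3 to day 4 was -0.23 (limma adjusted p = 0.9997). Both comparisons share the day 4 libraries and the 67 members tested there, 9 of which reached the level for testing in WT alone. Oasl2 is 1 of these 9.

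Immune genes outside this list gave few differences. Tapbpl, a peptide editor of MHC class I, measured 6.18, 5.41 and 5.22 FPKM in WT against 4.22, 4.20 and 4.09 FPKM in KO, without overlap (-0.35, SE 0.0821, limma adjusted p = 0.9997). The MHC class I list had 11 of 18 members negative (median -0.03), where 41.1% of all genes were negative. It had 0 members under an unadjusted p of 0.05. The chemokine Ccl5 measured 1.41, 2.00 and 3.13 FPKM in WT against 1.0001, 1.38 and 1.01 FPKM in KO (-0.55, SE 0.181), without overlap. Among inflammatory cytokines and chemokines 9 of 16 were negative (median -0.01). Without WT mouse 531 the medians of the MHC class I and the chemokine list were 0.05 and 0.09, and Ccl5 was at -0.34. The monocyte chemokines Ccl2 and Ccl7 lay on the other side, with log2 differences of 0.47 (SE 0.224) and 0.48 (SE 0.211). Ccl7 measured 0.619, 1.32 and 0.524 FPKM in WT against 1.41, 2.27 and 0.951 FPKM in KO. It reached the level for testing in KO alone, and so had to be higher in KO. Ccl2 measured 3.98, 3.91 and 5.11 FPKM in WT against 5.90, 9.88 and 4.31 FPKM in KO, with overlap and highest in KO mouse 528. Without KO mouse 528 the differences were 0.19 for Ccl2 and 0.28 for Ccl7.

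**Figure D4:**
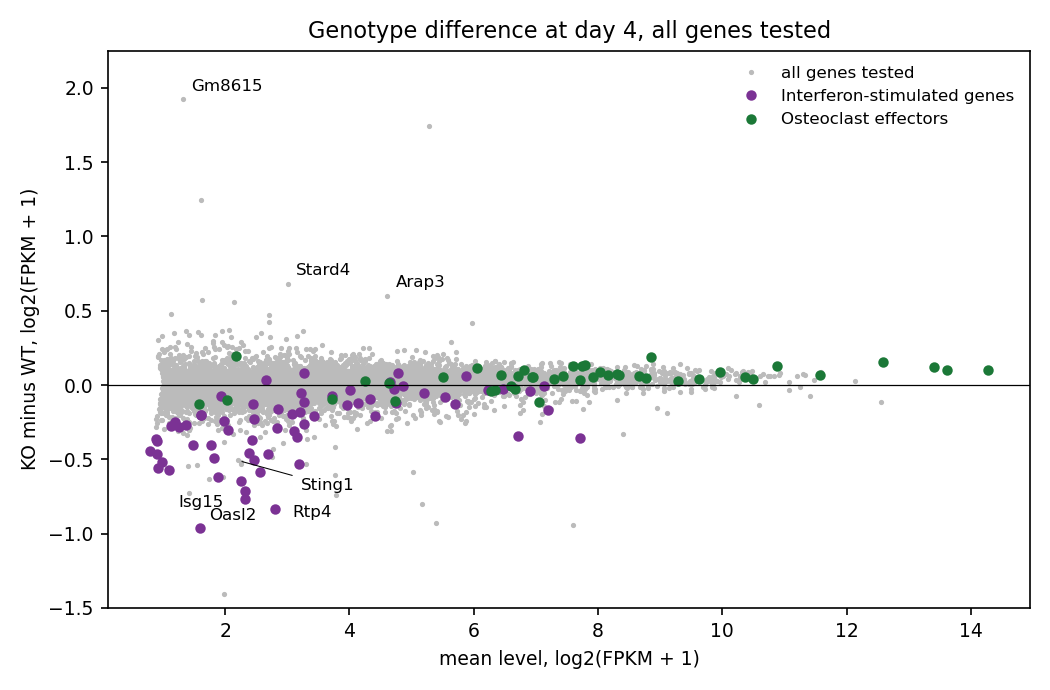
Log2 difference (KO minus WT) against mean level, both on the log2(FPKM + 1) scale, for the 9413 genes tested; 7 genes outside the vertical range are not drawn. Interferon-stimulated genes (purple) lie mostly below 0 and most strongly at low levels, while osteoclast effectors (green) lie close to 0 at high levels. The purple genes at low levels include 9 that reached 1 FPKM in WT alone and so had to lie below 0.

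Osteoclast effector genes differed by small amounts between the genotypes at day 4, with overlapping groups throughout. All 44 members were tested, and 35 had a positive difference (79.5%, against 58.9% of all genes). The median was 0.06, against 0.02 over all genes. An unadjusted p under 0.05 was reached by 0 members in either direction (0.552% of all genes higher, 0.606% lower). Groups without overlap were found for 0 members (2.35% of all genes higher, 1.50% lower). No member passed adjustment by limma. Acp5 measured 19502, 18174 and 19528 FPKM in WT against 18998, 20914 and 21624 FPKM in KO, with overlap, and differed by 0.10 (95% interval -0.25 to 0.46). The collagen protease Ctsk differed by 0.10 (-0.23 to 0.43) and the gelatinase Mmp9 by 0.12 (-0.23 to 0.48). Car2, the carbonic anhydrase that supplies protons for bone acidification, differed by 0.13 (-0.08 to 0.35). Calcr, the calcitonin receptor, differed by 0.06 (-0.17 to 0.29), and Itgb3, the beta3 integrin chain by which osteoclasts attach to bone, by 0.06 (-0.32 to 0.43).

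The member with the smallest p was Dcstamp, a membrane protein required for fusion of precursors. It measured 486, 384 and 430 FPKM in WT against 482, 499 and 494 FPKM in KO. WT mouse 480 lay within the KO range and the other two WT mice below it, and the difference was 0.19 (95% interval -0.03 to 0.40, limma adjusted p = 0.9997). Its relative Ocstamp differed by 0.13 (-0.14 to 0.40) and the proton pump subunit Atp6v0d2 by 0.05 (-0.19 to 0.30). Of 15 fusion genes 9 were positive (60%, against 58.9% of all genes). Their median was 0.01, and -0.0091 without KO mouse 532. The effector median was 0.13 without WT mouse 480. In that comparison 11 of 44 effectors were higher and 3 lower in KO at an unadjusted p under 0.05 (1.92% and 4.70% of all genes), with 0 passing adjustment. The 11 included Dcstamp at 0.27, Ocstamp at 0.26 and Nfatc1 at 0.23, and the 3 lower were Trem2 at -0.31, Rgs18 at -0.28 and Atp2a3 at -0.25. Without WT mouse 531 the median was 0.02, with 26 of 44 positive. Without WT mouse 529 it was also 0.02, with Dcstamp at 0.11 and Ocstamp at 0.015.

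**Figure D5:**
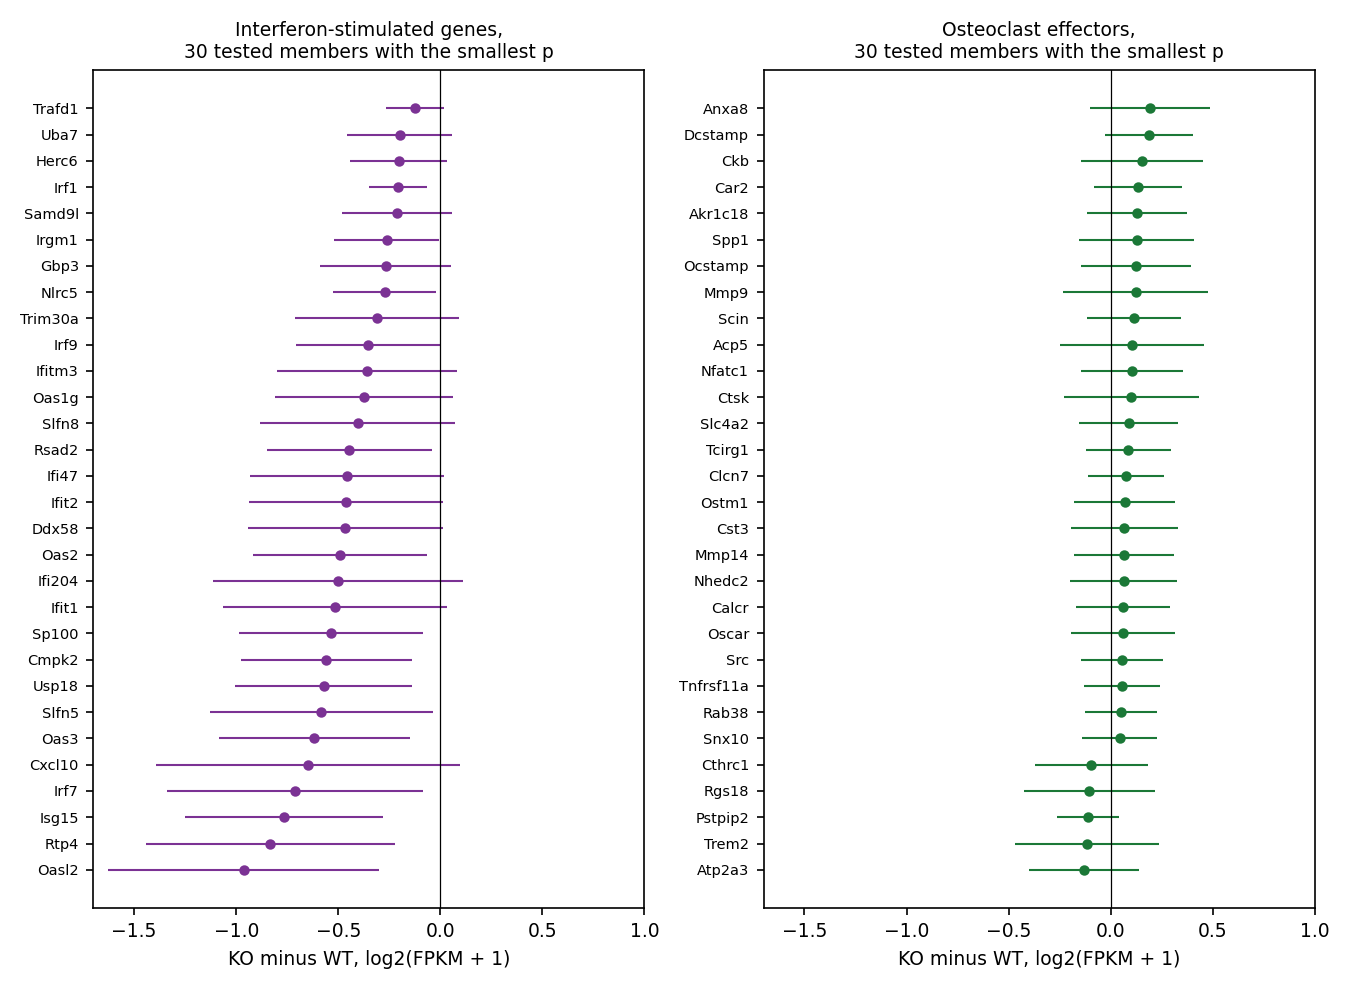
Log2 difference (KO minus WT, log2(FPKM + 1)) and 95% interval of the 30 interferon-stimulated (left) and 30 osteoclast effector genes (right) with the smallest p at day 4. The left intervals are wider and all centred below 0, whereas all the right intervals include 0. The left panel includes members that reached the level for testing in WT alone, and so had to be lower in KO. Among them are Oasl2, Usp18, Cmpk2 and Rsad2. Of the 9 such members, 5 had an unadjusted p under 0.05.

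Upstream regulators overlapped as well except for Nfkb1, an NF-kB subunit, whose KO libraries all lay below WT (-0.05, SE 0.0602). That is 1 of 33 tested genes (3.03%), against 1.50% of all genes. Of 33 tested genes of RANK signalling and osteoclast transcription factors, 22 were positive (66.7%, against 58.9% of all genes, median 0.02). An unadjusted p under 0.05 was reached by 0 of them (1.16% of all genes). Nfatc1, the master regulator, measured 126, 98.4 and 97.1 FPKM in WT against 111, 107 and 126 FPKM in KO (0.10, 95% interval -0.15 to 0.36). Its highest WT library was again mouse 480. Tnfrsf11a, which encodes RANK, differed by 0.05 (-0.13 to 0.24) and the mCSF receptor Csf1r by -0.05 (-0.23 to 0.14). Of 20 tested repressors of osteoclast differentiation 16 were negative (80%, against 41.1% of all genes, median -0.05). Without WT mouse 529, 10 of 20 were negative (median -0.0048). Irf8, an interferon regulatory factor that represses the programme, measured 4.82, 9.49 and 9.07 FPKM in WT against 6.25, 7.13 and 6.99 FPKM in KO (-0.13, SE 0.197). WT mouse 480 was below all KO mice and the other two WT mice above them, and without WT mouse 480 Irf8 differed by -0.40 (limma adjusted p = 0.19).

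Lysosomal, mitochondrial and proliferation genes gave medians near that of all genes. Of all genes tested, 58.9% were positive. Of 44 proton pump and lysosome genes 34 were positive (median 0.05, and 0.02 without WT mouse 529). All 40 respiratory chain and ATP synthase genes were positive (median 0.06), but the lowest library was WT mouse 529 for 38 of the 40, and without it the median was -0.01. Of 47 cell cycle genes 33 were positive (median 0.03). KO mouse 481 was highest for 39 of them, and the median was -0.05 without KO mouse 481, -0.0055 without WT mouse 529 and 0.13 without KO mouse 532. Mki67, the proliferation antigen, measured 16.2, 16.0 and 14.8 FPKM in WT against 17.7, 14.8 and 14.7 FPKM in KO. Among 26 cholesterol genes, Stard4 and the squalene epoxidase Sqle (0.10, SE 0.0613) had every KO library above every WT library (7.69%, against 2.35% of all genes). The cholesterol list median was 0.03. In glycolysis genes 13 of 15 were positive (median 0.03), but 5 of 15 without WT mouse 529 (median -0.01) and 7 of 15 without KO mouse 481 (median -0.02).

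Macrophage markers were low and neutrophil markers high in WT mouse 480, the WT mouse with the lowest interferon-stimulated and highest osteoclast effector mean. Of 28 tested macrophage and monocyte markers 22 were negative (78.6%, against 41.1% of all genes, median -0.11). Their mean log2 level was 5.48 in WT mouse 480 against 6.12 and 6.07 in WT mice 529 and 531, and 5.71, 5.96 and 5.84 in KO mice 481, 528 and 532. The defining marker Emr1 (F4/80) measured 73.9, 144 and 126 FPKM in WT against 96.9, 104 and 89.9 FPKM in KO, so WT mouse 480 was lowest and the other two WT mice highest. Without WT mouse 480, 19 of 28 markers were lower and 2 higher in KO at an unadjusted p under 0.05 (4.70% and 1.92% of all genes, median -0.34), and without WT mouse 529 the median was 0.004. The 2 that lay higher were Ccr2, the receptor for Ccl2, and the scavenger receptor Marco, with differences of 0.34 (SE 0.116) and 0.57 (SE 0.199) over all 6 libraries. The 8 tested neutrophil markers had a median of 0.25, which moved with single WT mice. It was -0.00088 without WT mouse 531, with 4 of 8 positive, and 0.50 without WT mouse 480, with 7 of 8 higher and 1 lower at an unadjusted p under 0.05. Their summed FPKM with the other 7 markers of that list was 173, 121 and 78.3 in WT against 148, 138 and 133 in KO. S100a8 measured 46.0, 33.4 and 22.3 FPKM in WT against 41.7, 35.7 and 37.1 FPKM in KO. Fewer cells of a type and less RNA per cell cannot be told apart in these bulk samples, and the part of these cells in the interferon and osteoclast differences was not tested.

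Further genes whose groups did not overlap, with a mean of 2 FPKM or more in 1 of them, showed small differences that did not pass. Among those higher in KO, Rpl26, a ribosomal protein with many processed copies, measured 49.1, 46.7 and 63.6 FPKM in WT against 72.9, 68.0 and 71.1 FPKM in KO (0.42, SE 0.109). The dynein light chain Dynlt1b, which has near-identical paralogs, differed by 0.42 (SE 0.128), Tmem138 by 0.32 (SE 0.1) and the desmosomal protein Pkp2 by 0.27 (SE 0.0843). Reads of Rpl26 and Dynlt1b could be shared with their copies, so both are uncertain. Among those lower in KO, Ypel4 differed by -0.54 (SE 0.16). Tnfrsf14 (HVEM), a receptor that regulates lymphocyte activation, measured 3.47, 6.20 and 4.40 FPKM in WT against 3.19, 2.88 and 2.53 FPKM in KO (-0.53, SE 0.16, and -0.35 without WT mouse 529). Mefv, the pyrin inflammasome sensor, differed by -0.22 (SE 0.0831). All had a limma adjusted p of 0.9997.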

How the data were processed

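The authors deposited FPKM in 1 table of 10721 genes, whose selection rule the sources used here do not give. HISAT2 2.0.5, Cufflinks 2.2.1, Cuffdiff and the build mm10 are named per the submitters' processing notes. The annotation and the strandedness of the libraries were not stated. Read depth per library is unknown, so no counting interval is given. An exact 0 can be a failed estimate.

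Each value column named the genotype, day and mouse of 1 sample. FPKM were tested as log2(FPKM + 1), a pseudocount of 1, with limma 3.58.1 (trend) in R 4.3.3 on the 6 day 4 libraries, for genes with a mean of at least 1 FPKM in either group. P-values are two-sided and adjusted by Benjamini-Hochberg over all genes tested at 0.05; "passed" means that threshold. The changes from day 0 and day 3 were tested on within-mouse differences. Replicates are mice, and no mouse is shared between genotypes; what neighbouring mouse numbers share was not stated, and a fit with them as a block was an alternative. Same-numbered libraries come from 1 mouse, so the mouse pairs the days.

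The comparison and the 23 gene lists were chosen with earlier results of these data known. Named genes are Sting1, genes past the threshold, the smallest p without overlap at 2 FPKM or more (up to 12 in each direction), the members of each list with the smallest p, fixed functional anchors and neighbours of Sting1. Gnpda1, Hbegf, Ms4a6c, Oas3, Mx2, Oasl1, Nfkb1, Trem2, Rgs18, Atp2a3, Emr1, S100a8, Gsn, Actr3, Sept7, Rnu11, the microRNA genes, Inpp5d and Cep250 fall outside that rule and were named after their values were seen. Some genes are not reported here. The 13 erythroid, mast cell and megakaryocyte, 10 B cell, 6 stromal and 3 T and NK cell markers in the table held fewer than 3 tested genes each. Positions and promoters are from RefSeq (GRCm38.p6), the position of Sting1 from GENCODE vM21; 99.3% of genes had one. The test was tested on simulated data. Alternatives were pseudocounts, filters, scalings, weights, blocks and leaving out each mouse.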

Additional observations from a re-analysis of the deposited data

How the results depend on the processing

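The count of genes past the threshold at day 4 was 1 in the reported fit and in every alternative except 2. With a filter at 5 FPKM it was 0 (0 genes higher in KO), because that filter removed Gm8615, and 59 genes had an unadjusted p under 0.05. When each mouse was left out in turn the count ran from 1 to 3, the genes lower in KO from 0 to 2, and the unadjusted calls from 78 to 625, the highest values each without WT mouse 480. With all 24 libraries and the mouse as a replicate block 1 gene passed, Gm8615 (limma adjusted p = 5.31e-12), and the block changed no other call at day 4. With neighbouring mouse numbers as a block 1 gene passed, and 175 genes had an unadjusted p under 0.05, with Isg15 at a limma adjusted p of 0.195. For the change from day 0, 0 genes passed, 1 with no replicate block (Sting1), and 0 to 2 when each mouse was left out (2 without KO mouse 481, Inpp5d and Mir1199, and 1 without KO mouse 528). For the change from day 3, 0 genes passed, and 0 to 2 when each mouse was left out: Mir1945 and Mir221 without WT mouse 480, and Cep250 without WT mouse 531. The cause was not tested.

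Of 1573 recomputed differences of 100 named genes, 1543 kept their direction and side of the threshold, and 30 changed sign. With array weights Id1 measured 0.039, Hk2 0.0036, Acta2 0.24, Itgb3 -0.0058 and Mki67 -0.045. The gene Mki67 was also at -0.00059 with median scaling and -0.013 with upper quartile scaling. When each mouse was left out, the differences ran from -0.29 to 0.28 for Pf4, -0.32 to 0.12 for Acta2, -0.0048 to 0.18 for Myc and -0.011 to 0.13 for Eno1. They ran from -0.020 to 0.13 for Pgk1, -0.35 to 0.018 for H2-Aa, -0.40 to 0.023 for Irf8 and -0.22 to 0.033 for Cebpb. They ran from -0.0050 to 0.49 for Lcn2, -0.24 to 0.0066 for Blnk, -0.095 to 0.26 for Itgb3 and -0.017 to 0.16 for Calcr. They ran from -0.018 to 0.12 for Tnfrsf11a, -0.081 to 0.047 for Mki67, -0.35 to 0.059 for Id1 and -0.037 to 0.15 for Atp6v0d2. None of these passed in any setting. Of 322 recomputed list medians, 8 moved by more than the spread between mice. Signs turned more widely. In at least 1 setting the median changed sign for the fusion, respiratory chain, cell cycle, glycolysis and stress response lists. The same held for the nucleic acid sensing, interferon receptor, inflammatory, MHC class I, MHC class II, macrophage and neutrophil lists. The interferon-stimulated median was -0.16 with array weights. It was -0.21 over all 80 listed members, and -0.21 over the 61 with a mean of 1 FPKM or more across the 6 libraries, both alternatives chosen after seeing the data. Groups of 3, unknown read depth and a preselected gene table limit what can be detected, and a missing call does not show equal levels.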

Other observations

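Several genes were listed at 0 FPKM in some day 4 libraries and far above 0 in others of the same genotype. Gsn, which encodes the actin-severing protein gelsolin, was listed at 0 in WT mouse 480 and KO mice 481 and 532, and at 270, 305 and 296 FPKM in WT mice 529 and 531 and KO mouse 528. Actr3, a subunit of the Arp2/3 complex, was listed at 0 in WT mouse 529 and KO mice 481 and 528 and at 276, 274 and 295 FPKM in WT mice 480 and 531 and KO mouse 532. The septin gene Sept7 was listed at 0 in WT mouse 480 and between 107 and 119 FPKM in the other 5 libraries. Such a 0 can be a failed estimate, and no fold is given. Of the 11 genes with an absolute log2 difference above 1, these 3, Gm8615, Rnu11 and 6 microRNA genes made up the whole set, and the small RNA genes were listed at 0 in at least 1 library each.

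The coupling factors by which osteoclasts signal to osteoblasts gave 6 of 10 positive differences (median 0.05), where 58.9% of all genes tested were positive. Ebi3, a cytokine subunit, measured 10.4, 15.3 and 15.2 FPKM in WT against 12.2, 10.5 and 10.5 FPKM in KO (-0.26, SE 0.138), with WT mouse 480 again apart from the other two. Sphk1, which makes sphingosine 1-phosphate, differed by 0.09 (SE 0.0837) and Lif, a cytokine of the interleukin-6 family, by 0.12 (SE 0.0951). Integrated stress response genes had 12 of 18 positive differences (median 0.03), and KO mouse 481 was the highest library for 13 of them. Without KO mouse 481 the median was -0.07, with 5 of 18 positive, and without WT mouse 529 it was -0.06, with 3 of 18. With array weights it was -0.02. Asns, asparagine synthetase, measured 35.9, 23.01 and 28.6 FPKM in WT against 40.5, 28.7 and 30.6 FPKM in KO (0.19, SE 0.166), and differed by 0.04 without KO mouse 481 and by 0.04 without WT mouse 529. MHC class II and dendritic cell genes had 4 of 9 positive (median -0.0024). The median was -0.16 without WT mouse 480, with 4 of 9 lower at an unadjusted p under 0.05 (4.70% of all genes), and 0.03 without WT mouse 529. H2-Ab1 measured 13.8, 18.8 and 18.5 FPKM in WT against 13.2, 14.9 and 14.9 FPKM in KO.

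Single markers of other lineages stayed above 1 FPKM. Blnk, an adaptor of B cells and myeloid cells, measured 31.5 to 44.9 FPKM over the 6 libraries, Il7r 5.40 to 7.78 FPKM, and the platelet factor Pf4 17.7 to 40.7 FPKM, each with overlap between genotypes. Summed stromal, osteoblast and endothelial markers ran from 1.74 to 3.44 FPKM in WT and from 1.23 to 6.35 FPKM in KO.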
